A study of Mus musculus with 12 samples.

Results

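The osteocalcin genes Bglap and Bglap2 and 5 further genes of non-collagenous bone proteins, Spp1, Ibsp, Dmp1, Phex and Mgp, were followed in calvarial osteoblast cultures of neonatal mice. These 7 genes were chosen by name for their place in bone matrix and its mineral, out of 49585 genes counted, and all 7 were among the 16318 genes with enough counts to be tested. RNA was sequenced from cells of WT littermates and of mice labelled Bcl3-/-, a whole-animal loss of an atypical IκB protein, on the C57BL/6J background. All cultures received 50 µg/mL ascorbic acid and 2 mM β-glycerophosphate, which start osteogenesis, for 1 or 3 days. Genotype and day made 4 groups of 3 libraries. The labels hold 6 codes, 3 per genotype, each borne by a library of day 1 and a library of day 3. Each code was taken as 1 culture, which the labels do not say. A culture came from the pooled calvariae of a few pups, so the libraries are primary cell mixtures and not a clonal line.

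Bone matrix is mostly type I collagen, and the proteins studied here sit in or act on the rest of it. Osteocalcin is a small protein that osteoblasts secrete late in their maturation; its glutamate residues are carboxylated with vitamin K so that it binds the mineral. Osteopontin (Spp1), bone sialoprotein (Ibsp) and dentin matrix protein 1 (Dmp1) belong to a family of acidic, integrin-binding phosphoproteins whose genes lie in a row; osteopontin restrains mineral growth, bone sialoprotein favors its nucleation, and Dmp1 and the membrane peptidase Phex are best known from osteocytes, where both hold down the phosphate-wasting hormone FGF23. Matrix Gla protein (Mgp) is another vitamin K-dependent protein and an inhibitor of calcification in cartilage and vessel walls.

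The genes did not move as a set. Bglap and Bglap2 were higher in libraries labelled Bcl3-/- on day 3, by 5.01-fold and 3.75-fold, and Bglap2 was also higher on day 1, by 4.44-fold. Spp1, by far the most abundant of the 7, went the other way, but on day 3, where libraries labelled Bcl3-/- were 2.50-fold lower than WT. Mgp and Dmp1 rose with time in WT, and neither was called by genotype on either day, although Mgp on day 1 was called under 3 other settings. Ibsp and Phex were not called in these comparisons, but several of their values passed under other settings. Without the count filter, these were Ibsp by genotype on day 3 (adjusted p = 0.0377 in edgeR) and over time in libraries labelled Bcl3-/- (adjusted p = 0.0145 in edgeR), and Phex over time in both genotypes.

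The threshold for a call was 0.05, on p-values of edgeR's quasi-likelihood test adjusted over the 16318 genes by Benjamini and Hochberg. By genotype, 1 of the 7 was called on day 1, beside 15.3% of all genes tested, and 3 of the 7 on day 3, beside 10.4%. The day 3 calls were 2 higher and 1 lower, where 4.78% of all genes were higher and 5.60% lower. Over time, 3 of the 7 were called in WT, beside 38.5%, and 4 of the 7 in libraries labelled Bcl3-/-, beside 33.4%. The latter were 3 higher and 1 lower, where 16.2% of all genes were higher and 17.2% lower. In the interaction, which asks whether the genotype difference changed between the days, 1 of the 7 was called, beside 1.12%, and it was negative, as for 0.950% of all genes, while 0.172% were positive. The median log2 fold change of the 7 was 0.46 by genotype on day 1, 0.49 on day 3, 1.06 over time in WT and 1.58 over time in libraries labelled Bcl3-/-, while the median of all genes was within 0.002 of 0 in each of these comparisons.

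**Figure D1:**
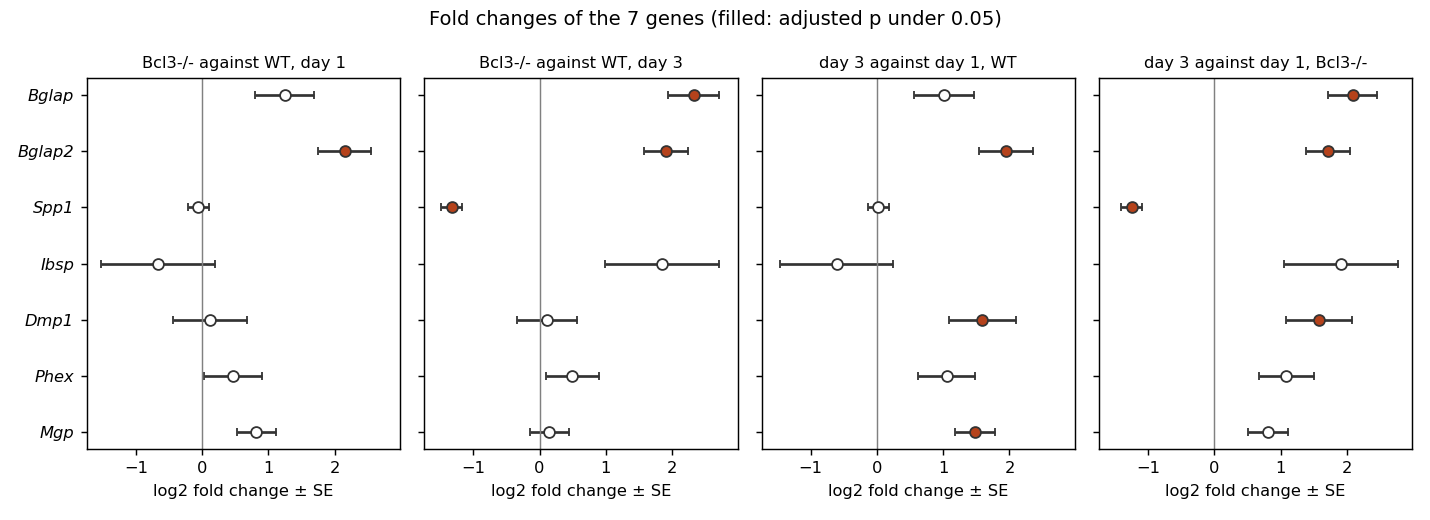
Log2 fold change (horizontal axis) of each of the 7 genes (rows) in 4 comparisons, with bars of 1 SE from the edgeR fit; filled points had an adjusted p under 0.05. Spp1 is the lone called gene to the left of 0, at -1.32 by genotype on day 3 and -1.25 over time in libraries labelled Bcl3-/-.

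The libraries held between 20009732 and 41953891 counts in genes, and a further 12.3 to 14.7% of the reads fell in none. Bcl3 itself was read in every library: on day 1 its levels in CPM, its counts relative to the library total after TMM scaling, were 17.9, 21.8 and 17.8 in WT and 17.5, 19.7 and 19.2 in Bcl3-/-, and the groups overlapped. On day 3 they were 14.8, 15.9 and 12.8 in WT and 10.2, 9.72 and 8.31 in Bcl3-/-. Which part of the gene was removed is not given in the sources used here, so each direction by genotype rests on the labels. All 5 osteoblast markers were present in every group, and their summed level was 31330 to 46360 CPM in WT and 55850 to 58500 CPM in Bcl3-/- on day 1, and on day 3 68320 to 73720 CPM against 69360 to 76790 CPM. Nearly all of that sum is the collagen genes Col1a1 and Col1a2, and other markers of the list moved differently: over time in WT, Sp7 fell by 2.27 and Alpl fell by 1.45 on the log2 scale (adjusted p = 1.36e-05 and 0.000303 in edgeR). Of 4 osteocyte genes listed, Sost, Mepe and Fgf23 were nearly absent, with 0 to 1, 0 to 7 and 0 to 3 counts per library. The other, Pdpn, was read in every library, at 128 to 178 CPM. Dmp1 and Phex were thus measured in cultures nearly without Sost, Mepe and Fgf23, and the presence of osteocytes was not tested.

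Per length, the 7 genes covered a wide range. In FPKM, a value scaled for transcript length and depth, Spp1 averaged 2793 ± 390 (SD, n = 3) in day 1 WT and ranked 8 among all genes there. It ranked 11 in day 1 Bcl3-/- and in day 3 WT, and 53 in day 3 Bcl3-/-, where it averaged 1048 ± 189 FPKM (SD, n = 3). Mgp came next, from 212 ± 55.6 FPKM in day 1 WT to 590 ± 190 FPKM (SD, n = 3) in day 3 Bcl3-/-. Bglap and Bglap2 stood at 3.68 ± 2.55 and 3.85 ± 2.33 FPKM in day 1 WT, which is indistinguishable within their spread, and at 34.0 ± 8.62 and 41.97 ± 11.5 FPKM (SD, n = 3) in day 3 Bcl3-/-. Ibsp lay between 2.34 and 8.24 FPKM as a group mean. In day 1 WT its mean, 3.65 ± 5.49 FPKM (SD, n = 3), was near those of the osteocalcin genes but rested on replicate 3. The libraries there were at 0.369, 0.597 and 9.99 FPKM. Phex and Dmp1 were lowest, with group means of 0.168 to 0.422 and 0.110 to 0.367 FPKM, and their order was not resolved beyond the spread of the libraries.

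**Figure D2:**
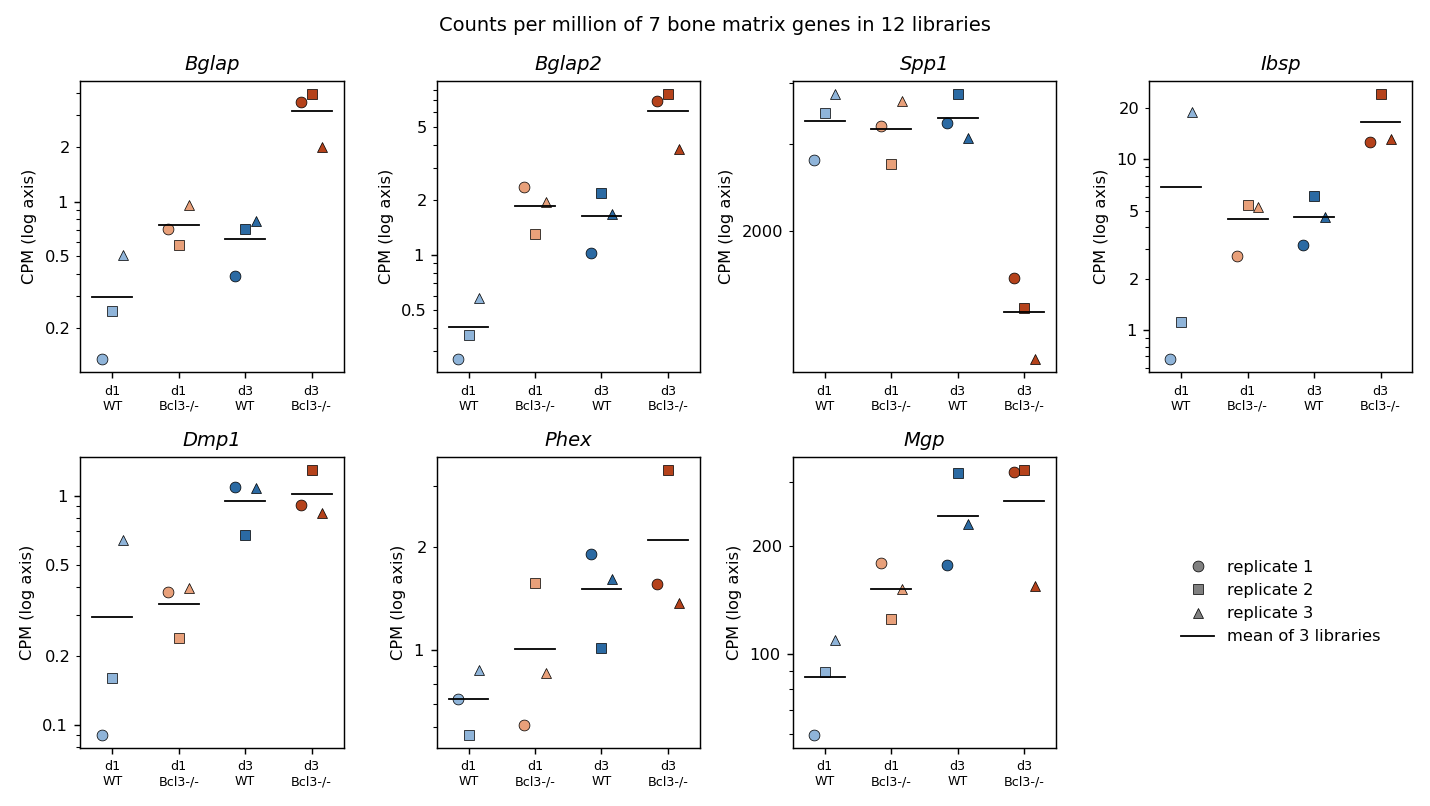
Level of each of the 7 genes in CPM (vertical axes, log scale) in the 4 groups (d1 and d3 for day 1 and day 3), with a point for each library, shaped by replicate number, and a line at the mean of 3 libraries. All Bglap and Bglap2 points of day 3 Bcl3-/- lie above those of the other groups, all Spp1 points of day 3 Bcl3-/- lie below, and for Ibsp the day 1 WT replicate 3 stands at 18.9 CPM, far above the others of its group.

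Bglap and Bglap2 lie side by side on the minus strand of chromosome 3 (GRCm38), Bglap at chr3:88383501-88384464 and Bglap2 at chr3:88377736-88378699, with the related gene Bglap3 at chr3:88368616-88372743. Each has 4 exons, and their coding sequences of 288 bases differ at 4 positions, an identity of 98.6%. Both are printed here because a read of 75 bases can tell the genes apart only where it covers a difference, which bears on every osteocalcin value below. The capitals mark the 4 positions at which the coding sequences, read from the GENCODE M21 transcripts, differ.
Bglap: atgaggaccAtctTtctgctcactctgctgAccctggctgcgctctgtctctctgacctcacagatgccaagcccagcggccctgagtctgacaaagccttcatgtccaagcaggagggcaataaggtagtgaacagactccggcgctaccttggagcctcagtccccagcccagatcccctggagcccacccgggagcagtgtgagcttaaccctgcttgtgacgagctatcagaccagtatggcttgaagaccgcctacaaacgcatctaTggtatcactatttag
Bglap2: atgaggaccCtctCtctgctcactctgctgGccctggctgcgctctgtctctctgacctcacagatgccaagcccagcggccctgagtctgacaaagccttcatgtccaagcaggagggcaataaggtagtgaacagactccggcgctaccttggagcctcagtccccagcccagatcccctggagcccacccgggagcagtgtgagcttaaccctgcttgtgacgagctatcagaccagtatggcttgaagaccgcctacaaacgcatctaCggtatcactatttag

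Of the 366 stretches of 75 bases in the Bglap transcript, 66.1% also occur in Bglap2 or Bglap3, and of the 397 in the Bglap2 transcript 73.3% occur in the others; in the other 5 genes the share was at most 0.2%. These shares take each read of 75 bases alone, while the libraries hold pairs, in which either read can tell the genes apart. Reads that align to several places made up 10.6 to 12.8% of each library and are not in the gene counts. The deposited FPKM values were 5.49 times the CPM per kilobase for Bglap and 3.46 times for Bglap2 (medians over 12 libraries), against 1.04 to 1.48 times for the other 5 genes. The ratio was higher for Bglap than for Bglap2, whose shared part is larger, and Mgp, also short and with no shared stretch, had the highest ratio of the other 5. The part of shared reads and of transcript length in these ratios was not tested, and the split of counts between the pair is uncertain.

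Bglap had 3, 11 and 19 counts in the day 1 WT libraries, or 0.136, 0.250 and 0.506 CPM. In day 1 Bcl3-/- its levels were 0.708, 0.580 and 0.955 CPM, in day 3 WT 0.387, 0.706 and 0.778 CPM, and in day 3 Bcl3-/- 3.55, 3.92 and 2.00 CPM. All day 3 libraries labelled Bcl3-/- were thus above all others, and those of day 1 were above the day 1 WT libraries. By genotype the log2 fold change was 2.33 on day 3 (SE 0.38, adjusted p = 0.00375 in edgeR) and 1.25 on day 1 (SE 0.44, adjusted p = 0.0807 in edgeR). Over time it was 2.09 in libraries labelled Bcl3-/- (SE 0.37, adjusted p = 0.00132 in edgeR), and 1.01 in WT (SE 0.45, adjusted p = 0.0975 in edgeR), where the days overlapped. The day 1 difference by genotype and the WT change over time passed without day 1 WT replicate 3, the highest of its group, at 1.83 (adjusted p = 0.0267 in edgeR) and 1.58 (adjusted p = 0.0302 in edgeR). The interaction was 1.08 (SE 0.60, adjusted p = 0.528 in edgeR).

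Bglap2 was the one gene of the 7 to pass in all 4 of these comparisons. Its levels were 0.271, 0.364 and 0.586 CPM in day 1 WT and 2.35, 1.30 and 1.94 CPM in day 1 Bcl3-/-. On day 3 they were 1.02, 2.18 and 1.68 CPM in WT against 6.96, 7.55 and 3.79 CPM in Bcl3-/-. The groups did not overlap by genotype on either day or by day in either genotype. The log2 fold change by genotype was 2.15 on day 1 (SE 0.40, adjusted p = 0.00466 in edgeR) and 1.91 on day 3 (SE 0.34, adjusted p = 0.00525 in edgeR). Over time it was 1.95 in WT (SE 0.41, adjusted p = 0.00247 in edgeR) and 1.71 in libraries labelled Bcl3-/- (SE 0.33, adjusted p = 0.00222 in edgeR). The interaction of -0.24 (SE 0.51, adjusted p = 0.913 in edgeR) did not pass, and the genotype difference kept its call in each of the 12 fits that left out 1 library. With the counts of Bglap, Bglap2 and Bglap3 summed to 1 gene, so that the split no longer matters, the summed osteocalcin count was higher in libraries labelled Bcl3-/- on day 1, by 1.61 on the log2 scale (adjusted p = 0.00856 in edgeR), and rose in WT by 1.44 (adjusted p = 0.00562 in edgeR).

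The share of Bglap in the counts of the pair gives the split itself. On day 1 it was 40.1% ± 6.5 (SD, n = 3) in WT against 29.0% ± 5.2 in Bcl3-/-, and on day 3 27.9% ± 3.6 against 34.2% ± 0.4. The day 1 WT share rests on few reads: in replicate 1 it was 3 of 9 counts, 33.3% with a 95% Wilson interval of 12.1 to 64.6%, while in day 3 Bcl3-/- replicate 2 it was 34.2% with an interval of 29.4 to 39.3%. Bglap2 held the larger share in all 12 libraries. From the FPKM values the mean share of Bglap was higher in each group and still under that of Bglap2. Intervals cover counting error alone.

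**Figure D3:**
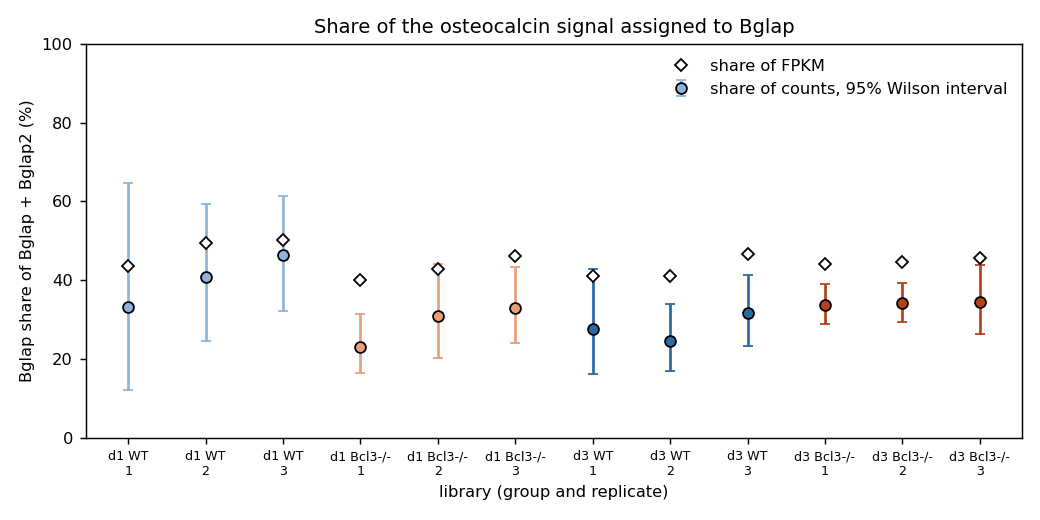
Bglap as a share of Bglap and Bglap2 together (vertical axis, %) in each of the 12 libraries (horizontal axis, d1 and d3 for day 1 and day 3), from counts as circles with 95% Wilson intervals and from FPKM as open diamonds. In counts the share lies between 23.1 and 46.3%, and the intervals are widest in day 1 WT, where the counts were fewest.

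Bglap3, whose product is best known from kidney rather than bone, stayed between 6 and 25 counts per library. Its group means were 0.261 CPM for WT and 0.355 CPM for Bcl3-/- on day 1, then 0.375 and 0.430 CPM on day 3. By genotype its log2 fold change was 0.54 on day 1 (SE 0.49, adjusted p = 0.524 in edgeR) and 0.19 on day 3 (SE 0.46, adjusted p = 0.833 in edgeR).

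Spp1 lies on the plus strand of chromosome 5 at chr5:104435118-104441050, at one end of a row of related genes that spans 270339 bases and holds Dspp, Dmp1, Ibsp, Mepe and Spp1 in that order. An annotated entry on the same strand, Gm42793, overlaps it, and reads in that overlap are uncertain. The stretches of 250 bases before the start sites of Bglap and Spp1 are printed because these genes went opposite ways by genotype on day 3 and each holds 1 match to the letters ACCACA, the core that RUNX factors bind, searched on both strands. The match is in capitals, and the sequences are from RefSeq, GRCm38.p6, at chr3:88384467-88384716 on the minus strand and chr5:104434861-104435110 on the plus strand.
Bglap: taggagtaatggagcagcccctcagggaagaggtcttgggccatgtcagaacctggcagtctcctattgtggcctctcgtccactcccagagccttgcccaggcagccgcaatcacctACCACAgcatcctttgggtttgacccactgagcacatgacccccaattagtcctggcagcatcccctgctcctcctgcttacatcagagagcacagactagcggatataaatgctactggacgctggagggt
Spp1: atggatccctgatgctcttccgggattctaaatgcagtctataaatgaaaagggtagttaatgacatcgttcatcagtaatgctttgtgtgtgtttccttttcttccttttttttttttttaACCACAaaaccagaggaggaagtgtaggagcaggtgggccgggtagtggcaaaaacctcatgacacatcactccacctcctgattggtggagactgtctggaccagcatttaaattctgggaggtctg

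The match begins at position -132 from the Bglap start and at -128 from that of Spp1. Of 32851 promoter windows, each searched over the 250 bases before its start site, 14.0% hold these letters. A second start site of Spp1, Ibsp and Phex had no match, and of 2 start sites of Dmp1 the second had 1, at position -164. A looser motif to which NF-κB dimers can bind, GGG and CC with 5 bases of any kind between them, occurs in 45.8% of these windows on either strand. Bglap had 3 such matches, of which 2 overlap, the first Dmp1 window had 1, and Spp1, Ibsp and Phex had none. Windows of Bglap2 and Mgp were not used here. A match is a description of the letters.

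Spp1 was level across 3 of the groups and lower in the fourth. It stood at 2782, 3482 and 3799 CPM in day 1 WT, 3265, 2730 and 3684 CPM in day 1 Bcl3-/- and 3317, 3799 and 3095 CPM in day 3 WT. In day 3 Bcl3-/- it was at 1600, 1389 and 1094 CPM, below all 9 other libraries. On day 1 the log2 fold change by genotype was -0.06 (SE 0.16, adjusted p = 0.862 in edgeR), and on day 3 it was -1.32 (SE 0.16, adjusted p = 0.00121 in edgeR). Over time Spp1 fell by 1.25 on the log2 scale in libraries labelled Bcl3-/- (SE 0.16, adjusted p = 0.000139 in edgeR), beside 0.02 in WT (SE 0.16, adjusted p = 0.934 in edgeR). The test of the difference between days, the interaction, gave -1.27 (SE 0.22, adjusted p = 0.0309 in edgeR). In fits that left out 1 library this interaction was between -1.40 and -1.12, and its adjusted p, between 0.0101 and 0.118, passed in 3 of 12 of them; the genotype difference on day 3 passed in all 12. Where the interaction did not pass, 0 to 8 of all genes were positive and 1 to 45 negative, beside 28 and 155 with all 12 libraries.

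Osteopontin is also made by macrophages and osteoclasts, so their markers are given beside it. Of 10 macrophage markers 1, Csf1r, was lower in libraries labelled Bcl3-/- on day 3 and none higher, beside 5.60% and 4.78% of all genes. The summed level of the list was 745 to 1135 CPM in WT and 476 to 937 CPM in Bcl3-/-. Of 6 osteoclast markers tested none was called by genotype on day 3, beside 10.4% of all genes. The list summed to 261 to 358 CPM in WT and 398 to 423 CPM in Bcl3-/-, and no marker of either list was at 0 in these groups. Most of the osteoclast sum was Ctsk, at 244 to 334 CPM in WT and 377 to 397 CPM in Bcl3-/-, and Calcr had 0 to 1 count per library. Most of the macrophage sum was Lyz2, at 500 to 800 CPM and 323 to 648 CPM. The part of these cells in the fall of Spp1 was not tested. In such bulk samples, fewer cells of a type and less RNA per cell cannot be told apart.

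Ibsp, at chr5:104299171-104311469, was the gene on which the libraries of 1 group differed most. In day 1 WT it had 15, 49 and 709 counts, or 0.678, 1.12 and 18.9 CPM. The levels were 2.71, 5.42 and 5.24 CPM in day 1 Bcl3-/- and 3.13, 6.14 and 4.57 CPM in day 3 WT. In day 3 Bcl3-/- they were 12.7, 24.1 and 13.1 CPM, above both groups just named. Day 1 WT replicate 3 thus stood among the day 3 libraries labelled Bcl3-/-, and the gap of 4.34 on the log2 scale to the mean of the other day 1 WT libraries was the second largest of the 16318 genes, of which 56 had a gap over 2 and whose median gap was 0.14. The same culture on day 3, at 4.57 CPM, lay between the others of its group. Day 1 WT replicate 3 was set apart across genes as well. Its chi-square per gene, a distance between libraries, was 36.7 to 42.9 to the day 1 libraries labelled Bcl3-/-. For day 1 WT replicates 1 and 2 this distance was 79.8 to 95.3. Replicate 3 was 29.8 and 26.0 from those WT replicates, which were 19.4 apart. Each of the genes followed here had a positive gap in replicate 3, the smallest 0.29 (Spp1). The cause was not tested.

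With all 12 libraries, the log2 fold change of Ibsp by genotype was -0.67 on day 1 (SE 0.86, adjusted p = 0.674 in edgeR) and 1.85 on day 3 (SE 0.85, adjusted p = 0.190 in edgeR), although the day 3 groups did not overlap. Over time it was -0.60 in WT (SE 0.85, adjusted p = 0.622 in edgeR) and 1.91 in libraries labelled Bcl3-/- (SE 0.86, adjusted p = 0.107 in edgeR). Leaving out day 1 WT replicate 3 turned the sign on day 1, to 2.23 (adjusted p = 0.00778 in edgeR), and in WT over time, to 2.28 (adjusted p = 0.00303 in edgeR). The spread of this gene is shared by the groups in the fit, and without that library the other contrasts also passed, at 1.87 by genotype on day 3 (adjusted p = 0.00667 in edgeR) and 1.92 over time in libraries labelled Bcl3-/- (adjusted p = 0.00164 in edgeR). The pooled SD of Ibsp over replicates was 1.34 on the log2 scale, larger than that of 99.6% of the genes, whose median was 0.18. The other 6 genes had SDs of 0.22 (Spp1) to 0.64 (Dmp1).

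**Figure D4:**
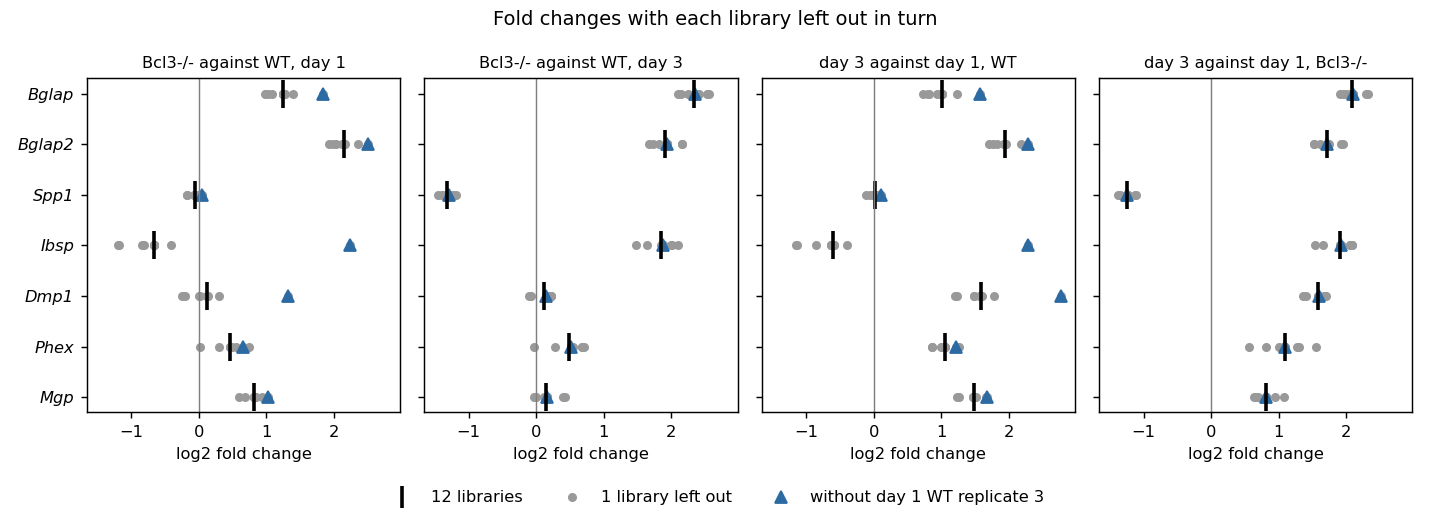
Log2 fold change (horizontal axis) of each of the 7 genes (rows) in 4 comparisons with all 12 libraries (black bars), with 1 library left out in turn (grey points) and without day 1 WT replicate 3 (blue triangles). For Ibsp that library moves the day 1 genotype value from -0.67 to 2.23 and the WT value over time from -0.60 to 2.28, while the Spp1 value by genotype on day 3 stays between -1.45 and -1.19.

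Dmp1, at chr5:104202613-104214102, rose over time in both genotypes and was not called between them on either day. Its counts were few: 2, 7 and 24 in day 1 WT and 15, 7 and 12 in day 1 Bcl3-/-, or 0.0905, 0.159 and 0.639 CPM and 0.379, 0.239 and 0.395 CPM. On day 3 the levels were 1.09, 0.675 and 1.08 CPM in WT against 0.911, 1.30 and 0.842 CPM in Bcl3-/-. Every day 3 library was above every day 1 library, and on each day the genotypes overlapped. The log2 fold change over time was 1.59 in WT (SE 0.50, adjusted p = 0.0245 in edgeR) and 1.58 in libraries labelled Bcl3-/- (SE 0.50, adjusted p = 0.0297 in edgeR), and by genotype it was 0.12 on day 1 (SE 0.56, adjusted p = 0.918 in edgeR) and 0.11 on day 3 (SE 0.45, adjusted p = 0.904 in edgeR). A smaller difference by genotype was not detectable with so few counts. Day 1 WT replicate 3 stood 1.93 on the log2 scale above the mean of the other day 1 WT libraries. With 1 library left out, the day 1 value by genotype ranged from -0.25 to 1.32 (adjusted p = 0.0892 to 0.998 in edgeR). The WT value over time ranged from 1.20 to 2.77 in these fits. The WT call was lost without day 1 WT replicate 1 or 2 or day 3 WT replicate 1 or 3, at 1.20 to 1.49 (adjusted p = 0.0596 to 0.115 in edgeR). The call in libraries labelled Bcl3-/- was lost without day 1 Bcl3-/- replicate 1, 2 or 3 or day 3 Bcl3-/- replicate 2, at 1.36 to 1.70 (adjusted p = 0.0619 to 0.109 in edgeR).

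Phex, at chrX:157162075-157415312 on the minus strand, was read at 0.724, 0.569 and 0.879 CPM in day 1 WT and 0.607, 1.57 and 0.856 CPM in day 1 Bcl3-/-. On day 3 it stood at 1.90, 1.01 and 1.61 CPM in WT against 1.56, 3.34 and 1.37 CPM in Bcl3-/-. The WT days did not overlap, while replicate 2 of day 1 Bcl3-/- lay among the day 3 libraries. Over time the log2 fold change was 1.06 in WT (SE 0.43, adjusted p = 0.0703 in edgeR) and 1.09 in libraries labelled Bcl3-/- (SE 0.41, adjusted p = 0.0618 in edgeR). With the culture as a block, which sets each culture's day 3 library against its own day 1 library, both passed, as they did without the count filter, at 1.01 (adjusted p = 0.0108 in edgeR) and 1.05 (adjusted p = 0.00984 in edgeR). In replicate 2 of Bcl3-/-, which bears the same code on both days, Phex was the highest of its group on both days. By genotype it was at 0.46 on day 1 (SE 0.44, adjusted p = 0.548 in edgeR) and 0.49 on day 3 (SE 0.40, adjusted p = 0.472 in edgeR).

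Mgp, at chr6:136872435-136875823 on the minus strand, has a coding sequence of 315 bases and shares no stretch of 75 bases with another gene. It stood at 59.8, 89.0 and 110 CPM in day 1 WT and 179, 125 and 152 CPM in day 1 Bcl3-/-. On day 3 it was at 177, 318 and 229 CPM in WT against 320, 325 and 155 CPM in Bcl3-/-. Day 1 WT was below all other libraries, and the other 3 groups overlapped in their ranges. In WT Mgp was higher on day 3 by 1.48 on the log2 scale (SE 0.30, adjusted p = 0.00212 in edgeR). In libraries labelled Bcl3-/- the change was 0.81 (SE 0.30, adjusted p = 0.0531 in edgeR), and it passed with the culture as a block, at 0.75 (adjusted p = 0.0323 in edgeR), or without day 3 Bcl3-/- replicate 3, at 1.08 (adjusted p = 0.00807 in edgeR). By genotype it was 0.82 on day 1 (SE 0.30, adjusted p = 0.0868 in edgeR), where the groups did not overlap and which passed without the count filter (adjusted p = 0.00622 in edgeR), with the libraries compared alone (adjusted p = 0.0327 in edgeR) or without day 3 Bcl3-/- replicate 3 (adjusted p = 0.0342 in edgeR), and 0.14 on day 3 (SE 0.29, adjusted p = 0.797 in edgeR); the interaction of -0.67 (SE 0.42, adjusted p = 0.590 in edgeR) did not pass.

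Chondrocytes and smooth muscle cells also make Mgp. The 7 chondrocyte markers summed to 775 to 2480 CPM in WT against 791 to 1116 CPM in Bcl3-/- on day 1, and to 365 to 1526 CPM against 342 to 441 CPM on day 3, with none at 0 in any group. Of 6 tested, 2 rose and 1 fell over time in WT, beside 20.6% and 17.9% of all genes. The 6 smooth muscle and pericyte markers summed to 2816 to 3095 CPM in WT against 2474 to 2602 CPM in Bcl3-/- on day 1, and to 2385 to 2811 CPM against 1799 to 2049 CPM on day 3, with none at 0. Over time in WT 0 of the 6 rose and 3 fell, beside the same shares of all genes. Their part in the levels of Mgp was not tested.

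Counted as groups whose libraries do not overlap, 3 of the 7 genes (Bglap, Bglap2 and Mgp) were apart by genotype on day 1, beside 38.3% of all genes, and 4 of the 7 (Bglap, Bglap2, Ibsp and Spp1) on day 3, beside 28.7%. Over time 4 of the 7 (Bglap2, Dmp1, Phex and Mgp) were apart in WT, beside 48.8%, and 5 of the 7 (both osteocalcin genes, Ibsp, Dmp1 and Spp1) in libraries labelled Bcl3-/-, beside 47.2%. Between day 1 Bcl3-/- and day 3 WT, 1 of the 7 (Dmp1) was apart, beside 35.7%.

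The design also allows early libraries labelled Bcl3-/- to be set against later WT libraries. None of the 7 genes was called between day 1 Bcl3-/- and day 3 WT in edgeR. Of all genes, 14.7% were called there, 7.35% higher and 7.32% lower. At an unadjusted p under 0.05 there were 2, Dmp1 and Mgp, and the share of all genes at that threshold is not given here. DESeq2 called 1, Dmp1, where 1421 of 15169 genes were higher and 1474 lower. Bglap stood at 0.748 ± 0.191 CPM against 0.623 ± 0.208 CPM (SD, n = 3), a log2 fold change of 0.24 (SE 0.41, adjusted p = 0.754 in edgeR). Bglap2 stood at 1.86 ± 0.532 CPM against 1.63 ± 0.581 CPM (SD, n = 3), at 0.20 (SE 0.35, adjusted p = 0.761 in edgeR). The lowest value was that of Dmp1, at -1.47 (SE 0.50, adjusted p = 0.0686 in edgeR), whose groups did not overlap and which passed without day 1 WT replicate 3 (adjusted p = 0.0144 in edgeR). Mgp was at -0.67 (SE 0.30, adjusted p = 0.158 in edgeR). A p above the threshold does not show that the levels were the same, and for Ibsp the SE of that difference was 0.87 on the log2 scale.

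The other secreted proteins of bone matrix rose in libraries labelled Bcl3-/- on day 1 more often than they fell. Of 8 listed, 5 were tested. On day 1 4 were higher, Clec3b among them, and none lower, beside 9.03% and 6.26% of all genes. On day 3 1, Clec3b, was higher, beside 4.78%. Clec11a, a growth factor for osteoprogenitors, was at 77.1 ± 34.6 CPM in day 1 WT and 225 ± 19.2 CPM (SD, n = 3) in day 1 Bcl3-/-, a log2 fold change of 1.54 (SE 0.29, adjusted p = 0.00466 in edgeR). Omd, a keratan sulfate proteoglycan of bone, was at 0.74 (SE 0.20, adjusted p = 0.0261 in edgeR), and Sparc, osteonectin, at 0.38 (SE 0.11, adjusted p = 0.0307 in edgeR), from 4692 ± 508 to 6119 ± 340 CPM (SD, n = 3). Clec3b, tetranectin, had no count in the day 1 WT libraries and 0.140 ± 0.0104 CPM in day 1 Bcl3-/- (adjusted p = 0.00517 in edgeR). On day 3 it was at 0.0740 ± 0.0464 CPM in WT and 1.66 ± 0.252 CPM (SD, n = 3) in Bcl3-/- (adjusted p = 0.000547 in edgeR). Outside day 3 Bcl3-/- its levels were at most 0.152 CPM, so it passed the count filter through that group alone. Its calls are thus a description and add nothing to the count of the list. The day 1 calls of Omd and Sparc were each lost in 5 of the 12 fits that left out 1 library (adjusted p up to 0.112 and 0.172 in edgeR). In the 3 tests on FPKM, the day 1 calls of Clec3b and Sparc were lost in each and that of Omd in 1. Mepe, Dspp and Ahsg were too low to test, with at most 7 counts in a library.

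**Figure D5:**
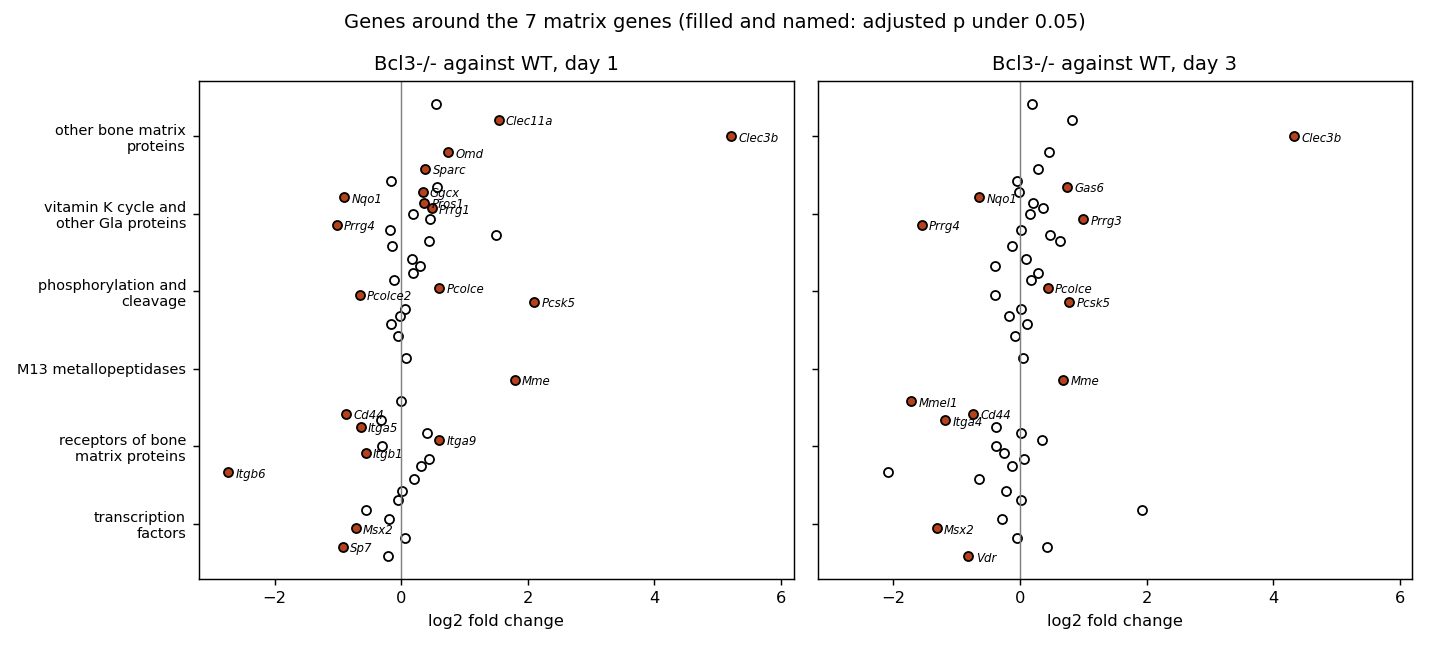
Log2 fold change by genotype (horizontal axis) on day 1 and day 3 of the tested genes of 6 lists around the 7 matrix genes (rows), with genes called at an adjusted p under 0.05 filled and named. On day 1 the called genes of the bone matrix list lie to the right of 0 and those of the transcription factor list to the left; the place of Clec3b on day 1 is a fitted value against a group with no counts, and not a bound.

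Osteocalcin and Mgp need the vitamin K cycle for their carboxylation. Of 13 genes of the cycle and of other proteins with Gla domains, 3 were higher and 2 lower by genotype on day 1, beside 9.03% and 6.26% of all genes. On day 3 2 were higher and 2 lower, beside 4.78% and 5.60%, and the medians were 0.34 and 0.15 on the log2 scale. Nqo1, a quinone reductase, was lower on both days, at -0.90 (SE 0.13, adjusted p = 0.00142 in edgeR) and -0.64 (SE 0.13, adjusted p = 0.0112 in edgeR). Prrg4, a transmembrane Gla protein, was at -1.02 (SE 0.28, adjusted p = 0.0295 in edgeR) and -1.55 (SE 0.31, adjusted p = 0.00924 in edgeR). Pros1, protein S, and Prrg1 were higher on day 1, at 0.36 (SE 0.10, adjusted p = 0.0269 in edgeR) and 0.48 (SE 0.13, adjusted p = 0.0278 in edgeR). Ggcx, the carboxylase itself, named after its values were seen, was at 0.34 on day 1 (SE 0.09, adjusted p = 0.0306 in edgeR) and -0.01 on day 3 (SE 0.09, adjusted p = 0.963 in edgeR). The epoxide reductase Vkorc1, likewise outside the naming rule, passed on neither day, at 0.43 (SE 0.26, adjusted p = 0.310 in edgeR) and 0.63 (SE 0.26, adjusted p = 0.142 in edgeR). The day 1 calls of Pros1, Prrg1 and Prrg4 were lost in 4, 5 and 4 of the 12 fits without 1 library, and those of Prrg1 and Prrg4 also in all 3 tests on FPKM. The day 3 call of Nqo1 was lost without day 3 WT replicate 1 (adjusted p = 0.0531 in edgeR). Over time, 8 of the 13 rose and 3 fell in WT, beside 20.6% and 17.9% of all genes.

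The phosphoproteins are phosphorylated in the secretory pathway and cleaved there or in the matrix. Of 10 tested genes for these steps, 2 were higher and 1 lower by genotype on day 1, beside 9.03% and 6.26% of all genes, and 2 were higher and none lower on day 3, beside 4.78% and 5.60%. The proprotein convertase Pcsk5 was at 19.1 ± 3.66 CPM in day 1 WT and 82.2 ± 14.1 CPM (SD, n = 3) in day 1 Bcl3-/-, a log2 fold change of 2.10 (SE 0.16, adjusted p = 8.72e-05 in edgeR), and at 0.77 on day 3 (SE 0.15, adjusted p = 0.00825 in edgeR). Pcolce, an enhancer of procollagen cleavage, was higher on both days, at 0.60 (SE 0.11, adjusted p = 0.00360 in edgeR) and 0.44 (SE 0.11, adjusted p = 0.0229 in edgeR), while the related Pcolce2 was lower on day 1, at -0.65 (SE 0.17, adjusted p = 0.0257 in edgeR), a call lost in 4 of the 12 fits without 1 library. The day 3 call of Pcolce was lost in 3 of them, without day 3 WT replicate 1 or day 3 Bcl3-/- replicate 2 or 3 (adjusted p up to 0.0981 in edgeR). The kinase Fam20c, which phosphorylates these matrix proteins and was named after its values were seen, passed on neither day, at 0.19 (SE 0.09, adjusted p = 0.177 in edgeR) and 0.28 (SE 0.09, adjusted p = 0.0613 in edgeR).

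Phex is one of the M13 metallopeptidases, of which 4 others were tested. Mme, neprilysin, was at 14.8 ± 2.82 CPM in WT against 50.9 ± 4.05 CPM in Bcl3-/- on day 1, and at 75.9 ± 11.3 CPM against 122 ± 13.4 CPM on day 3 (SD, n = 3). Its log2 fold change by genotype was 1.79 on day 1 (SE 0.15, adjusted p = 0.000113 in edgeR) and 0.68 on day 3 (SE 0.14, adjusted p = 0.0113 in edgeR), where that of Phex did not pass. The day 3 call of Mme was lost without day 3 Bcl3-/- replicate 2 (adjusted p = 0.0510 in edgeR). Mmel1 was lower on day 3, at -1.72 (SE 0.45, adjusted p = 0.0310 in edgeR), from levels under 1 CPM, and this call was lost in 6 of the 12 fits without 1 library.

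Osteopontin and bone sialoprotein bind cells through integrins and, for osteopontin, CD44. Of 11 receptor genes, 1 was higher and 4 lower by genotype on day 1, beside 9.03% and 6.26% of all genes. On day 3 none was higher and 2 were lower, beside 4.78% and 5.60%, and the medians were -0.31 and -0.38 on the log2 scale. Cd44 was at 574 ± 69.5 CPM in day 1 WT and 315 ± 22.2 CPM (SD, n = 3) in day 1 Bcl3-/-, a log2 fold change of -0.87 (SE 0.12, adjusted p = 0.00138 in edgeR), and at -0.74 on day 3 (SE 0.12, adjusted p = 0.00417 in edgeR). Itgb1, the β1 chain, was at -0.56 on day 1 (SE 0.11, adjusted p = 0.00524 in edgeR) and Itgb6 at -2.74 (SE 0.39, adjusted p = 0.00138 in edgeR), the latter from 1.44 ± 0.310 to 0.209 ± 0.0656 CPM (SD, n = 3). Itga9, which binds an osteopontin fragment, was higher on day 1, at 0.60 (SE 0.12, adjusted p = 0.00794 in edgeR).

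Of 8 transcription factors that act on the osteocalcin or bone sialoprotein genes, none was higher and 2 were lower by genotype on day 1, beside 9.03% and 6.26% of all genes. On day 3 none was higher and 2 were lower, beside 4.78% and 5.60%. Dlx3, a homeobox factor named after its values were seen, was at 1.93 on day 3 (SE 0.62, adjusted p = 0.0703 in edgeR) with groups that did not overlap. Sp7, osterix, was at 59.7 ± 14.4 CPM in day 1 WT and 31.6 ± 4.06 CPM (SD, n = 3) in day 1 Bcl3-/-, a log2 fold change of -0.92 (SE 0.20, adjusted p = 0.00918 in edgeR), and at 0.42 on day 3 (SE 0.21, adjusted p = 0.218 in edgeR). Msx2, a repressor of osteocalcin transcription, was lower on both days, at -0.72 (SE 0.17, adjusted p = 0.0145 in edgeR) and -1.32 (SE 0.17, adjusted p = 0.00178 in edgeR). Its day 1 call was lost without day 1 WT replicate 1 (adjusted p = 0.0576 in edgeR) or day 1 Bcl3-/- replicate 2 (adjusted p = 0.0513 in edgeR). The vitamin D receptor Vdr was lower on day 3, at -0.82 (SE 0.14, adjusted p = 0.00500 in edgeR). Runx2, listed with these and also named after its values were seen, was at 0.07 on day 1 (SE 0.10, adjusted p = 0.739 in edgeR) and -0.05 on day 3 (SE 0.10, adjusted p = 0.781 in edgeR).

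Of 11991 genes whose mean log2 CPM reached 1, those whose levels followed each of the 7 most closely over the 12 libraries are given as a description, since the libraries share cultures, days and genotypes. Bglap was followed most closely by Smim19 (Pearson r = 0.986), Ift74 and Cnrip1, and Bglap2 by Fxyd1, phospholemman (r = 0.977), Rab9 and Ntrk2. For Spp1 these were Ttc26 (r = 0.955), Arpc1b, a subunit of the actin-nucleating Arp2/3 complex, and Slc25a24. The closest to Mgp were Aes (r = 0.983), Babam2 and the metallothionein Mt1. For Dmp1 they were Ccdc149 (r = 0.938), Ak5 and Psap, and for Phex Plin4 (r = 0.895), Kctd2 and As3mt. Ibsp had the least close match, Zfp213 (r = 0.872), followed by Fam53a and Tmem45a.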

How the data were processed

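RNA from 12 libraries of calvarial osteoblasts, 3 per group, was sequenced in 75-base pairs after SMART-seq v4 amplification. The authors trimmed reads with Trim Galore, aligned them with TopHat2 to mm10 and counted reads per gene with HTSeq, and deposited these counts. The deposited FPKM values were made with Cufflinks. Their versions, the annotation release and the strand setting are not given in the sources used here, so genes that overlap on opposite strands may share counts. The 5 rows that name no gene were left out.

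Counts were filtered (filterByExpr), scaled by TMM and fitted with edgeR 4.0.16 (R 4.3.3) over 4 groups, and p-values were adjusted over 16318 genes. The TMM factors were 0.951 to 1.053. CPM values use the library sizes after TMM. Alternatives used DESeq2 1.42.0 and limma 3.58.1 on log2(FPKM + 1). The edgeR fit was tested on simulated counts. No pair of libraries agreed within sampling noise.

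The genes and lists were chosen with earlier results of these data known. Named besides the 7 genes and Bcl3 were, from each list, up to 4 genes called by genotype with the smallest day 1 adjusted p, and the 3 genes closest to each of the 7 over 12 libraries. Others are marked as chosen after their values were seen, and Bglap3 was added for its shared sequence. Replicates bear separate codes in the labels and were taken as separate cultures from pooled pups, so p-values measure the spread between these cultures. Libraries of the same code deviated together in WT (correlations 0.24 to 0.33) but not in Bcl3-/- (-0.16 to -0.02), so the block by culture is an alternative. A listed gene is not reported here. Columns of samples outside the series numbered 0.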

Additional observations from a re-analysis of the deposited data

Results flagged for a closer look

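The difference by genotype of Spp1, osteopontin, changed between the days. The interaction on the log2 scale was -1.27 (SE 0.22, adjusted p = 0.0309 in edgeR): on day 1 the genotypes overlapped, and on day 3 all 3 libraries labelled Bcl3-/- lay below all 3 of WT. It was called by DESeq2 as well, and it was not called in 9 of the 12 fits that left out 1 library. Of all genes, 0 to 8 were positive and 1 to 45 negative in those 9 fits, and 16 to 81 and 67 to 394 in the others. The fit of all 12 libraries gave 28 and 155. Over the 12 fits the Spp1 value stayed between -1.40 and -1.12.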

How the results depend on the processing

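Of 838 values of the 7 genes under 22 alternatives, 731 kept their direction and their side of the threshold, 20 lost a call, 37 gained one and 50 changed sign, 34 of them with 1 library left out. No value called in the fit given in the report changed sign, while Ibsp without day 1 WT replicate 3 changed sign and was then called, by genotype on day 1 and over time in WT. Of 604 values of the named list genes and Bcl3, 540 stayed on their side and 64 lost a call. Unless stated, the cause was not tested. The number of the 7 genes called by genotype on day 1 was 2 without the count filter, with only the libraries compared, with DESeq2 and with limma on log2(FPKM + 0.1), beside 1. Of all genes tested, 1573 of 30749 were higher and 855 lower without the filter, and 1572 and 1179 of 15732 with only those libraries. DESeq2 gave 1708 and 1286 of 16323 and this limma test 1142 and 963 of 15347, beside 1473 and 1021 of 16318. Without the count filter, the number of the 7 called over time in Bcl3-/- was 7, beside 4. Of all genes, 2340 of 30749 were then higher and 2810 lower, beside 2644 and 2810 of 16318. For the interaction the number of the 7 called was 0 with limma without an FPKM filter, beside 1. Of all genes, 2 of 34735 were then higher and 3 lower, beside 28 and 155 of 16318. Between day 1 Bcl3-/- and day 3 WT it was 2 without the count filter and 1 with only the libraries compared or DESeq2, beside 0. Of all genes, 1068 of 30749 were higher and 1155 lower without the filter, and 1163 and 1274 of 15577 with only those libraries. DESeq2 gave 1421 and 1474 of 15169, beside 1199 and 1194 of 16318. The share of Bglap from FPKM, an alternative chosen after seeing the data, was 47.7% for WT and 43.0% for Bcl3-/- on day 1, then 42.9 and 44.9% on day 3. With 1 library left out, the number called ranged from 1 to 3 by genotype on day 1 and 3 to 4 on day 3. With time it was 2 to 5 in WT and 3 to 6 in libraries labelled Bcl3-/-. It was 0 to 1 in both the interaction and day 1 Bcl3-/- against day 3 WT. Of 16655 to 16769 genes tested in these fits, 723 to 1733 were higher and 452 to 1248 lower by genotype on day 1. On day 3, 311 were higher and 387 lower without day 3 WT replicate 1, and 753 and 981 without day 3 Bcl3-/- replicate 1. Over time, 2385 to 3566 were higher and 2139 to 3230 lower in WT, and 1989 to 2738 and 2084 to 2904 in Bcl3-/-. The interaction gave 0 to 81 and 1 to 394. Day 1 Bcl3-/- against day 3 WT gave 614 to 1400 and 512 to 1329.

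With the replicate block by culture, the log2 fold change of Ibsp over time in WT was 0.47, and the calls it gained for Phex and Mgp are given above. The replicate block by number changed no call of the 7 genes, and that by culture lost none. The limma tests on log2(FPKM + 1), on log2(FPKM + 0.1) and without an FPKM filter gave Ibsp on day 1 as 0.18, 0.65 and 0.18, Ibsp over time in WT as 0.19, 0.67 and 0.19, Spp1 over time in WT as -0.05 in each, and the Bglap2 interaction as 0.20, 0.03 and 0.20. The Bglap2 interaction was 0.27 with the osteocalcin genes summed, that of Dmp1 0.00 with RLE scaling and that of Phex 0.00 without the count filter. With 1 library left out, the values by genotype on day 1 ranged from -0.18 to 0.05 for Spp1, -1.20 to 2.23 for Ibsp and -0.25 to 1.32 for Dmp1, and on day 3 from -0.11 to 0.22 for Dmp1, -0.03 to 0.70 for Phex and -0.04 to 0.42 for Mgp. Over time in WT they ranged from -0.12 to 0.11 for Spp1 and -1.15 to 2.28 for Ibsp. The interactions ranged from -0.57 to 0.01 for Bglap2, -0.36 to 3.07 for Ibsp, -1.18 to 0.39 for Dmp1 and -0.50 to 0.51 for Phex. Between day 1 Bcl3-/- and day 3 WT they ranged from -0.03 to 0.45 for Bglap2, -0.17 to 0.05 for Spp1 and -0.27 to 0.22 for Ibsp. Depth limits Dmp1 and the osteocalcin genes most, with as few as 2 counts of Dmp1, 3 of Bglap and 6 of Bglap2 in a library.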
